A study of Rattus norvegicus with 10 samples.

Results

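Transcripts of 8 neurotrophic factors and receptors were followed in the rat supraoptic nucleus after knock-down of Opn3, the gene of the light-sensitive receptor opsin 3. The genes were the ligands Bdnf, Ntf3, Gdnf, Cntf and Lif and the receptors Ntrk2, Ntrk3 and Ngfr. They were found by gene name, each beside 1 Ensembl identifier, so that 8 of the 32623 genes in the deposited table are described. RNA had been sequenced from 10 samples of this hypothalamic nucleus, taken from male Sprague-Dawley rats of 250 to 300 g. Each rat had received adeno-associated virus on both sides of the brain, with a short hairpin RNA against Opn3 in one nucleus (shOpn3, 5 samples) and a non-targeting hairpin in the opposite nucleus (shControl, 5 samples). All samples thus came from virus-injected tissue, taken 2 weeks after injection with a punch of 1 mm from sections of 100 µm, and each nucleus was extracted on its own. The promoter that drove the hairpins, the cells the virus entered and the side given each virus are not stated in the labels.

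Values are normalized counts, that is, reads per gene divided by 1 size factor per sample. Libraries held 33402693 to 39958578 reads in shControl and 33158341 to 37263244 in shOpn3. Opn3 lay between 261 and 1007 normalized counts in shControl and between 145 and 290 in shOpn3, with overlapping groups (log2 ratio of shOpn3 over shControl -1.82, SE 0.320, limma adjusted p = 0.00226). The nucleus was recognisable by its peptide transcripts, although Avp and Oxt fell by 2.35 and 2.21 in log2 units (SE 0.426 and 0.328, limma adjusted p = 0.00269 and 0.000915). Markers of other cells moved with the groups: the summed level of 8 oligodendrocyte markers was 731561 to 1244840 in shControl and 248955 to 470326 in shOpn3, that of 8 microglial markers 9410 to 13326 and 17300 to 35447, and that of 8 astrocyte markers 262859 to 347382 and 309692 to 450014. Of these markers, 8 of 8 oligodendrocyte genes were called lower, 7 of 8 microglial genes and 3 of 8 astrocyte genes higher, and 0 were absent from all samples. Their part in the results below was not tested, and in bulk tissue fewer cells of a type and less RNA per cell cannot be told apart.

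Neurotrophic factors are secreted proteins that keep neurons alive and shape their growth and synapses. Bdnf and Ntf3 encode neurotrophins, which act through Trk receptor tyrosine kinases (TrkB, encoded by Ntrk2, for brain-derived neurotrophic factor, and TrkC, encoded by Ntrk3, for neurotrophin 3) and through the p75 receptor encoded by Ngfr. Gdnf encodes the founding ligand of a family that signals through GFRα co-receptors and the kinase Ret. Cntf and Lif encode cytokines of the interleukin 6 family, which share the receptor chains gp130 (Il6st) and Lifr and signal through JAK kinases and STAT3. In the supraoptic nucleus, brain-derived neurotrophic factor is made by magnocellular neurons, and ciliary neurotrophic factor is known to support these neurons after axon injury.

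Lif and Cntf rose with the knock-down, and no member fell by the test. Genes were tested with limma on log2(normalized count + 1), with p-values adjusted over all 15597 genes that had a mean of at least 10. This filter kept 7 of the 8 members, Gdnf being below it. Of these 7, 2 had an adjusted p under 0.05, both of them higher in shOpn3, and 5 did not pass. Across all genes tested 18.8% were called, 10.4% as higher, so a count of 2 in 7 was near the background. With the replicate number as a blocking term in the model the same 2 members were called, against 30.3% of all genes. The median log2 ratio was -0.05 over the 7 members and -0.02 over all genes. The groups did not overlap for Lif and Ntrk2, 2 of the 7 members, against 15.3% of all genes.

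**Figure D1:**
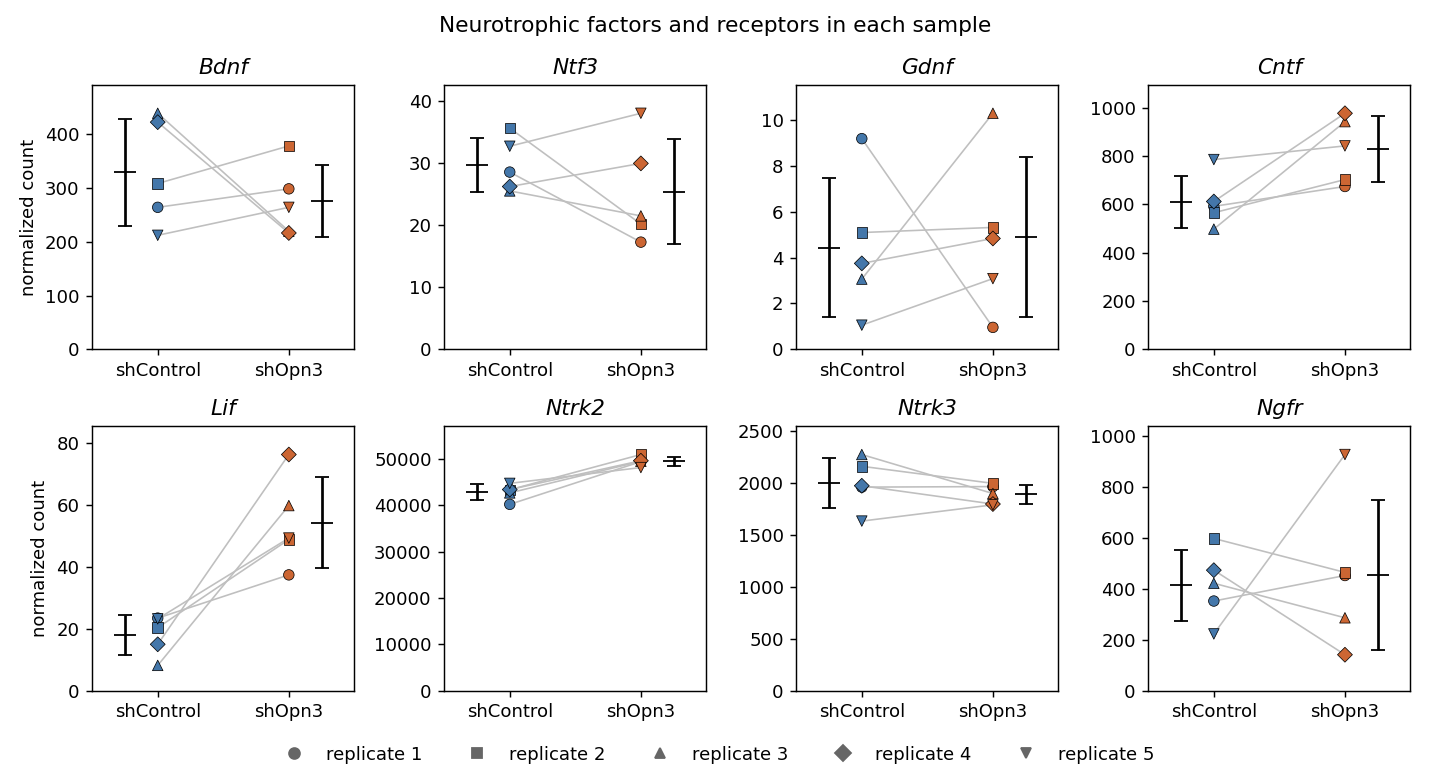
Normalized counts (vertical axes, from 0) of the 8 genes in shControl and shOpn3 samples, with marker shapes for the replicate number, grey lines joining same-numbered samples and black bars for mean and SD (n = 5). Lif and Ntrk2 show no overlap between the groups, while Ngfr in shOpn3 spreads from 141 to 927.

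Lif showed the largest change among the members. It had 23.4, 20.4, 8.16, 15.0 and 23.2 normalized counts in shControl replicates 1 to 5 and 37.4, 48.9, 59.8, 76.3 and 49.3 in shOpn3 replicates 1 to 5. Every shOpn3 sample lay above every shControl sample. The means were 18.0 ± 6.48 and 54.3 ± 14.6 (n = 5 per group, SD), a 3.01-fold difference. On the log2 scale Lif rose by 1.59 (SE 0.295, limma adjusted p = 0.00305), and the exact two-sided permutation test gave p = 0.00794, the smallest that 5 against 5 samples allow. That permutation test leaves out the pairing of samples, which is taken up further below. These values rest on 8 to 23 reads per library in shControl and 39 to 79 in shOpn3. In the authors' deposited table Lif had a log2 ratio of 1.60 (standard error 0.302).

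Cntf, whose product is made by astrocytes in the brain, had 592, 566, 498, 612 and 786 normalized counts in shControl replicates 1 to 5. In shOpn3 replicates 1 to 5 it had 674, 703, 943, 978 and 842. The groups overlapped, since shControl replicate 5 lay above shOpn3 replicates 1 and 2. Means were 611 ± 107 and 828 ± 137 (n = 5 per group, SD), 35.6% higher in shOpn3. The log2 ratio was 0.44 (SE 0.139, limma adjusted p = 0.0454), and an exact permutation test, two-sided and unpaired, gave p = 0.0317. This call was narrow, and it was lost without any of shControl replicates 1, 2, 3 or 4 or shOpn3 replicates 3, 4 or 5, with adjusted p from 0.0767 to 0.119. The summed astrocyte markers were highest in shControl replicate 5 (347382) and in shOpn3 replicate 4 (450014), the samples in which Cntf was highest in each group. In shOpn3 replicate 1, however, their sum was 388690, above that of shControl replicate 5, while Cntf was the lowest of its group and below that of shControl replicate 5.

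The RefSeq table of promoter windows (assembly GRCr8) held entries for 4 of the 8 members, namely Bdnf, Ntf3, Gdnf and Cntf. The stretch of 250 bases before the start of Cntf (chr1:219314536-219314785, minus strand) is shown because Cntf was the called member with an entry. Capitals mark a match to the AP-1 motif TGANTCA, which began 72 bases before the start.
Cntf: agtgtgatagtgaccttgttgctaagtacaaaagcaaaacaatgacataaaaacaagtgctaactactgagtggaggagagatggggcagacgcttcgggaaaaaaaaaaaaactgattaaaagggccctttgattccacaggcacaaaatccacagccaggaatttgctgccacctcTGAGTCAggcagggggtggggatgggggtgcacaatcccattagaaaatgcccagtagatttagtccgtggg
Windows were searched on both strands for TGANTCA (AP-1), TTCNNNGAA (STAT), TGACGTCA (CRE) and TGACG, the core of the CRE. Of 33469 rat windows of this length, 6.34% held TGANTCA and 7.67% held TTCNNNGAA, and the Cntf window had no match to the latter. A match is a description of the letters and shows no binding.

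The receptor chains of these cytokines were not called without the block. Cntfr, the binding chain for ciliary neurotrophic factor, averaged 857 ± 134 normalized counts in shControl against 691 ± 110 in shOpn3 (n = 5 per group, SD), a log2 ratio of -0.31 (SE 0.137, limma adjusted p = 0.136). Lifr had 2631 ± 383 and 3108 ± 374 (n = 5 per group, SD), a log2 ratio of 0.24 (SE 0.113, limma adjusted p = 0.160). Blocking on the replicate number, both passed: Cntfr as lower (limma adjusted p = 0.0154, lower in 5 of 5 pairs) and Lifr as higher (limma adjusted p = 0.0295, higher in 5 of 5 pairs). Il6st, the shared gp130 chain, had 7140 ± 732 and 7923 ± 1068 (n = 5 per group, SD) and did not pass in either fit (limma adjusted p = 0.361, and 0.121 with the block).

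Some other ligands and receptors of the same family rose. Of 11 tested genes of gp130 cytokines and receptors, 3 were called higher and 0 lower, with a median log2 ratio of 0.34 against -0.02 over all genes. The share called over all genes was 18.8%, and 30.3% with the block. Under the block the counts were 5 higher and 3 lower, adding Osm and Lifr as higher and, among the lower, Cntfr and Il11ra1 (Osm and Il11ra1 are named after their values were seen). Osmr, the oncostatin M receptor chain, rose from 200 ± 53.9 to 424 ± 120 normalized counts (n = 5, SD; log2 ratio 1.07, SE 0.219, limma adjusted p = 0.00519). Il6r, the interleukin 6 receptor, rose by 0.91 in log2 units (SE 0.128, limma adjusted p = 0.000695). Clcf1, a further ligand that binds Cntfr, rose from 13.8 ± 7.71 to 32.5 ± 3.38 (n = 5, SD; log2 ratio 1.41, SE 0.409, limma adjusted p = 0.0310). Its call was lost without shControl replicate 2 or any 1 shOpn3 sample, with adjusted p from 0.0503 to 0.0708. Il6 lay below the filter, with 0 to 2 reads in every shControl library and 6 to 36 reads in the shOpn3 libraries. It is named after its values were seen.

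Of the pathway downstream of these receptors, some genes were called higher and 6 of 14 were not called. Of 14 tested genes of JAK-STAT3 signalling and its targets, 8 were called higher and 0 lower, against 10.4% of all genes called higher. The median log2 ratio was 0.36. The list was chosen with earlier results of these data known, so its count is a description and not a test. Socs3, the feedback inhibitor induced by STAT3, rose from 15.1 ± 5.24 to 39.1 ± 13.2 normalized counts (n = 5, SD; log2 ratio 1.31, SE 0.290, limma adjusted p = 0.00802). Timp1, an inhibitor of matrix proteases, rose from 425 ± 97.8 to 1651 ± 429 (n = 5, SD; log2 ratio 1.95, SE 0.198, limma adjusted p = 0.000168). Bcl3 and Cebpd, both transcriptional regulators, rose by 1.60 and 1.28 in log2 units (SE 0.226 and 0.350, limma adjusted p = 0.000737 and 0.0235). The Cebpd call was lost without shControl replicates 2 or 4 or shOpn3 replicates 3 or 4, with adjusted p from 0.0511 to 0.0576. The summed microglial markers, given above, were higher in every shOpn3 sample than in any shControl sample. The summed astrocyte markers overlapped between the groups, with 347382 in shControl replicate 5 against 309692 in shOpn3 replicate 2. Gfap stands both in this list and among the astrocyte markers.

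Bdnf did not pass the test, although activity-induced genes with which it is commonly grouped rose. It had 264, 308, 439, 422 and 212 normalized counts in shControl replicates 1 to 5 and 298, 378, 220, 216 and 264 in shOpn3 replicates 1 to 5. The highest values were those of shControl replicates 3 and 4, and the lowest that of shControl replicate 5, so the groups overlapped throughout. Means were 329 ± 98.8 and 275 ± 66.7 (n = 5 per group, SD), a log2 ratio of -0.23 (SE 0.217; 95% interval -0.71 to 0.24; limma adjusted p = 0.497). The interval leaves room for a fall of 0.71 in log2 units and for a rise of 0.24.

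Of 15 activity genes regulated by neuronal firing in a similar way, 10 were called higher and 0 lower, against 10.4% of all genes called higher. The median log2 ratio of the list was 1.06. The largest were Egr3 (54.1 ± 37.6 and 229 ± 21.4 normalized counts), Egr2 (15.2 ± 10.4 and 68.8 ± 21.7), Egr4 (5.89 ± 4.83 and 23.7 ± 8.53) and Fosb (25.9 ± 7.60 and 84.6 ± 21.1; shControl and shOpn3, SD, n = 5 each). All of these encode transcription factors induced within minutes of stimulation, with log2 ratios of 2.33, 2.28, 2.10 and 1.68 (SE 0.378, 0.404, 0.502 and 0.235; limma adjusted p from 0.000695 to 0.0119). Whether Bdnf differed from them in its response was not tested. This list too was chosen with earlier results of these data known, so its count is a description only.

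Bdnf is transcribed from several alternative starts, and the RefSeq table held 6 windows for it. The deposited values are per gene and do not separate transcripts from these starts. The fourth window in order along the chromosome (chr3:116637608-116637857, plus strand) is shown because it holds the CRE core, a sequence that is bound by CREB at promoters of activity-induced genes. Capitals mark the core, TGACG read on the opposite strand, which began 35 bases before the start.
Bdnf, window 4: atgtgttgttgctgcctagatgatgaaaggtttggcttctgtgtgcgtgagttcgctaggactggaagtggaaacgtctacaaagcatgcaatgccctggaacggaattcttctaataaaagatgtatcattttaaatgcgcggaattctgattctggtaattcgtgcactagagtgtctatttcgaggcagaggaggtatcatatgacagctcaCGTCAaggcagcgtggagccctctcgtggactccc
Of all windows, 18.2% held this core and 1.59% the full CRE. The core was not particular to Bdnf among the members. The Gdnf window also held it, read on the opposite strand and beginning 49 bases before the start. Among the 6 Bdnf windows, window 1 held a match to TTCNNNGAA and window 3 a match to TGANTCA, and windows 2, 5 and 6 held none of the motifs searched.

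Ntf3 was expressed at a low level, with 28.5, 35.6, 25.5, 26.2 and 32.7 normalized counts in shControl replicates 1 to 5 and 17.3, 20.2, 21.5, 29.9 and 38.0 in shOpn3 replicates 1 to 5. The shOpn3 samples held both the lowest 3 values and the highest value. Means were 29.7 ± 4.33 and 25.4 ± 8.49 (n = 5 per group, SD), a log2 ratio of -0.26 (SE 0.234; 95% interval -0.77 to 0.24; limma adjusted p = 0.476).

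Ntf4, the gene of neurotrophin 4, lay below the filter with means of 6.27 ± 4.20 and 7.24 ± 4.99 (n = 5, SD; exact two-sided permutation test, p = 0.675). Of 9 tested genes among the other neurotrophin ligands and receptors, 2 were called higher and 0 lower (18.8% of all genes were called). With the block 4 were called higher (30.3% of all genes were called), which added Sorcs1 and Lingo1 (named after their values were seen). Among those called in both fits was Sorcs3, a sorting receptor of the sortilin family, which rose from 1095 ± 45.9 to 2000 ± 329 (n = 5, SD; log2 ratio 0.85, SE 0.108, limma adjusted p = 0.000427).

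Among the receptors, Ntrk2 varied least between replicates. It had 40174, 43314, 42645, 43368 and 44700 normalized counts in shControl replicates 1 to 5. In shOpn3 replicates 1 to 5 it had 49387, 50920, 49463, 49582 and 48108. Every shOpn3 sample lay above every shControl sample, by a small margin relative to the level. Means were 42840 ± 1667 and 49492 ± 997 (n = 5 per group, SD), 15.5% higher in shOpn3, with a log2 ratio of 0.21 (SE 0.0704; 95% interval 0.06 to 0.36).

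The call for Ntrk2 depended on the test. Its limma adjusted p was 0.0577, and 0.0621 with the block. The exact two-sided permutation test gave p = 0.00794, unadjusted, unpaired and the smallest possible. The authors' deposited table listed 0.21 for its log2 ratio (standard error 0.0477, adjusted p 0.000176). The gene-level value joins full-length TrkB with the truncated forms without a kinase domain that astrocytes make, and these cannot be separated here. Of the astrocyte markers, Aqp4, Gja1 and Gfap were called higher. Ntrk2 is overlapped by 7 long non-coding genes in the annotation of GRCr8, as Ntrk3 and Gdnf each are by 1, and the strand setting of the counting is not given in the sources used here.

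Ntrk3 had 1961, 2162, 2276, 1975 and 1634 normalized counts in shControl replicates 1 to 5 and 1967, 1998, 1900, 1799 and 1791 in shOpn3 replicates 1 to 5. All shOpn3 values lay inside the range of the shControl values. Means were 2002 ± 244 and 1891 ± 94.6 (n = 5 per group, SD), with a log2 ratio of -0.07 (SE 0.0896; 95% interval -0.27 to 0.12; limma adjusted p = 0.611).

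Ngfr varied widely between replicates, most of all in shOpn3, where its coefficient of variation was 65.1%. In shControl it was 33.7%, below the 36.0% of Lif. It had 352, 597, 421, 473 and 223 normalized counts in shControl replicates 1 to 5 and 452, 464, 286, 141 and 927 in shOpn3 replicates 1 to 5. Both the lowest and the highest value belonged to shOpn3, in replicates 4 and 5. Means were 413 ± 139 and 454 ± 296 (n = 5 per group, SD), and the log2 ratio was -0.05 (SE 0.416; 95% interval -0.95 to 0.86; limma adjusted p = 0.950). The mean was thus higher in shOpn3 on the linear scale and slightly lower in log2 units. A difference inside that wide interval was not detectable with these samples.

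The level of Ngfr followed transcripts of cholinergic neurons from sample to sample. In the forebrain the p75 receptor is a well-known marker of basal forebrain cholinergic neurons. Over the 10 samples, the 3 genes whose log2 values had the highest Pearson correlation with Ngfr were Slc18a3 (r = 0.977), Chat (r = 0.975) and Slc5a7 (r = 0.909). They encode the vesicular acetylcholine transporter, choline acetyltransferase and the choline transporter. Spearman's rho was 0.988, 0.891 and 0.964. Without shOpn3 replicates 4 and 5, the samples farthest from the Ngfr median, r was 0.992, 0.951 and 0.856. No p is given, since these genes were found as the highest of all genes tested.

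Chat had 182, 410, 287, 284 and 88.6 normalized counts in shControl replicates 1 to 5 and 304, 274, 199, 67.6 and 571 in shOpn3 replicates 1 to 5. Its lowest and highest values thus came from the same samples as those of Ngfr. Chat was not called between the groups (log2 ratio 0.05, SE 0.516, limma adjusted p = 0.958). Other genes of the list of 7 cholinergic markers had a lower Pearson r with Ngfr, 0.801 for Lhx8, 0.586 for Ache and 0.145 for Isl1. By rank Lhx8 was as close as Slc5a7 (Spearman's rho 0.964). Its r without shOpn3 replicates 4 and 5 was 0.898. Of the 7, Isl1 and Ache were called lower, 0 were called higher, and 0 were absent from all samples. The summed list ranged from 3787 to 7302 in shControl and from 2819 to 6992 in shOpn3. Its part in the level of Ngfr was not tested.

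**Figure D2:**
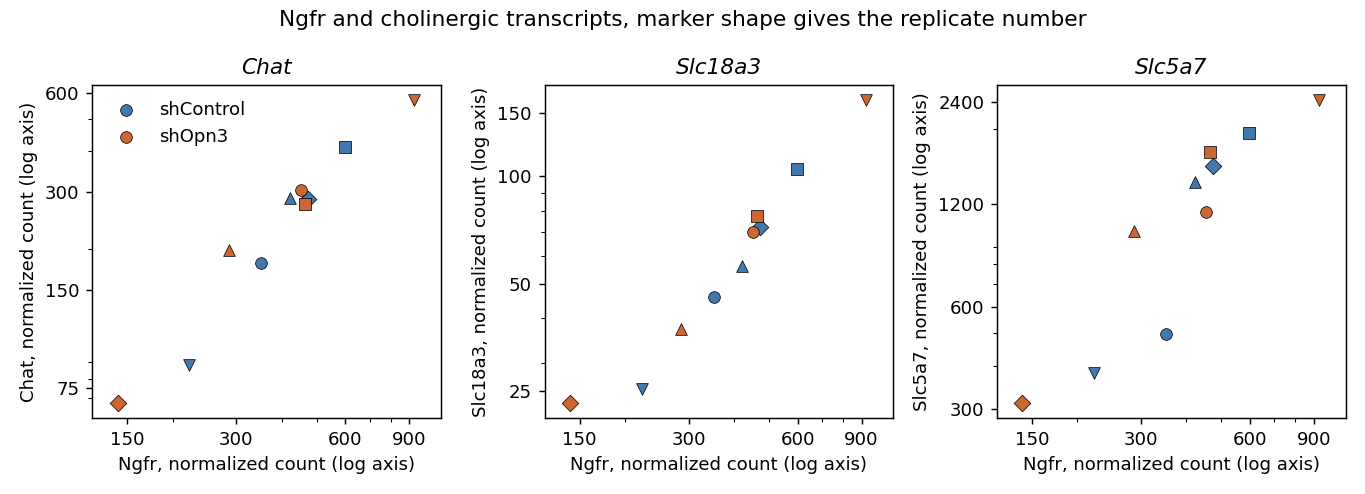
Ngfr (horizontal) against Chat, Slc18a3 and Slc5a7 (vertical), normalized counts on log axes, 1 point per sample, coloured by group with the marker shape for the replicate number as in the plot of all members. ShOpn3 replicate 4 is lowest and shOpn3 replicate 5 highest for all 4 genes, and samples of both groups lie along the same band.

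Sort1, the gene of sortilin, which binds the uncleaved neurotrophin precursors together with p75, had 20069 ± 1805 and 18910 ± 665 (n = 5, SD; log2 ratio -0.08, SE 0.0760, limma adjusted p = 0.497). Its log2 ratio was 0.03 after quantile normalization, so no direction is given.

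Gdnf was close to the limit of detection. It had 9, 5, 3, 4 and 1 reads in shControl replicates 1 to 5 and 1, 5, 11, 5 and 3 reads in shOpn3 replicates 1 to 5. Mean normalized counts were 4.42 ± 3.03 and 4.89 ± 3.46 (n = 5 per group, SD), and the exact two-sided permutation test gave p = 0.857. No difference was detectable at this depth.

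Ret, the signalling receptor of the family, was plainly expressed, with 3123 ± 627 and 3319 ± 416 normalized counts (n = 5, SD; log2 ratio 0.10, SE 0.133, limma adjusted p = 0.652). Gfra1 was not analysed here. Of 7 tested genes of this family and of the further factors grouped with it, 1 was called lower and 0 higher, against 18.8% of all genes. The block, under which 30.3% of all genes were called, added Gfra2 as higher (named after its values were seen). The called gene was Manf, which encodes a factor of the endoplasmic reticulum. It fell from 2519 ± 340 to 1758 ± 114 (n = 5, SD; log2 ratio -0.51, SE 0.0963, limma adjusted p = 0.00335).

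**Figure D3:**
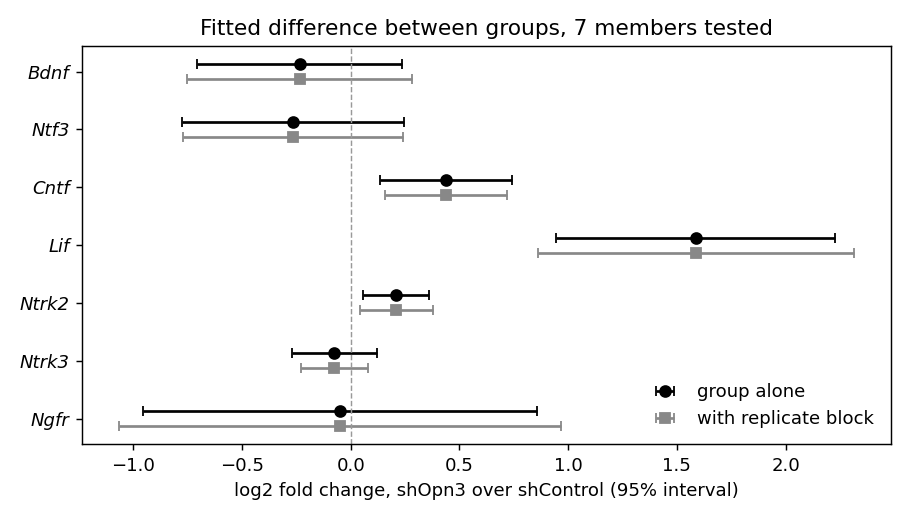
Fitted log2 ratios of shOpn3 over shControl (horizontal axis) for the 7 members tested, with 95% intervals, for the fit with the group alone and the blocked fit. The intervals of Lif, Cntf and Ntrk2 lie above 0 before adjustment for the number of genes, and that of Ngfr is the widest.

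Same-numbered samples were compared next, because both nuclei of a rat were sampled, 1 for each group. Differences are of log2(normalized count + 1), shOpn3 minus shControl, and the exact sign-flip test over 5 pairs cannot go below p = 0.0625. Lif was higher in shOpn3 in 5 of 5 pairs, by 0.65, 1.22, 2.73, 2.27 and 1.06 in pairs 1 to 5 (exact sign-flip p = 0.0625). Cntf was higher in 5 of 5 pairs, by 0.19, 0.31, 0.92, 0.67 and 0.10 (exact p = 0.0625). Ntrk2 was higher in 5 of 5 pairs, by 0.30, 0.23, 0.21, 0.19 and 0.11 (exact p = 0.0625). Of the 7 members tested, these 3 had all pairs in the same direction, against 39.4% of all genes tested.

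The remaining members had pairs on both sides of 0. Bdnf differed by 0.18, 0.29, -0.995, -0.96 and 0.31 in pairs 1 to 5 (exact sign-flip test, p = 0.5), so it was lower in pairs 3 and 4, at 0.50 and 0.51 of the control, and higher in the others. Pairs 3 and 4 were also those with the largest differences of Lif and Cntf. In them Opn3 was left at the smallest share of its control, 0.189 and 0.153 against 0.279 to 0.556 in the other pairs. These were the pairs with the highest Opn3 in shControl (841 and 1007 normalized counts). The level left in shOpn3 was not lowest there, at 159 and 154 against 145 in replicate 5, whose control was also lowest (261). Several of the summed marker lists, though not all, also set pairs 3 and 4 apart. The summed microglial markers stood at 2.94 and 3.77 times the control in pairs 3 and 4, against 1.55 to 1.94 times in the others, and the summed astrocyte markers at 1.49 and 1.66 times, against 1.13 to 1.26 times. The summed neuronal markers were at 0.937 and 0.763 of the control in pairs 3 and 4, against 1.23 to 1.39 in the others. The summed magnocellular markers did not set these pairs apart, at 0.487 and 0.451 against 0.347 to 0.593. Oligodendrocyte markers were highest there, at 0.397 and 0.572 against 0.340 to 0.378, as were endothelial markers, at 1.06 and 1.14 against 0.906 to 0.990. With 5 pairs no correlation is given, and a relation to the share of Opn3 left or to these markers was not tested. Among the members above the filter on the mean, Ngfr ranged most, from -1.74 in pair 4 to 2.05 in pair 5 (exact p = 0.875). Gdnf, below the filter with 1 to 11 reads per library, ran from -2.38 in pair 1 to 1.47 in pair 3. Ntf3, Ntrk3 and Gdnf were higher in 2, 2 and 4 of 5 pairs (exact p = 0.312, 0.438 and 0.812).

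**Figure D4:**
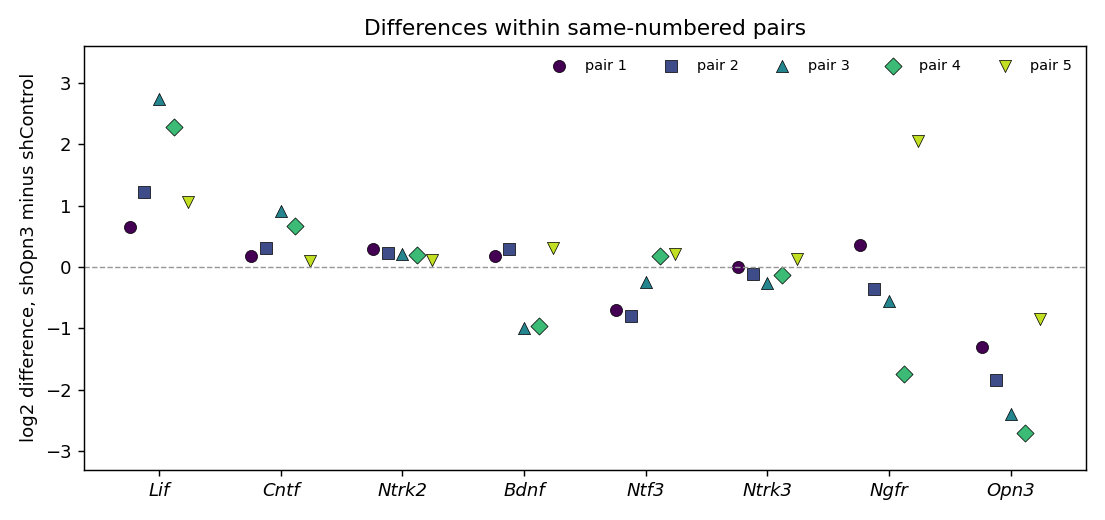
Differences of log2(normalized count + 1) within same-numbered pairs, shOpn3 minus shControl (vertical axis), for 7 members and Opn3, with 1 marker per pair. Lif, Cntf and Ntrk2 lie above 0 in all 5 pairs, and Bdnf is below 0 in pairs 3 and 4 only.

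Genes that process neurotrophin precursors moved in both directions. Of 12 tested, 2 were called higher and 2 lower, against 18.8% of all genes called. Pcsk5 and Pcsk6, proprotein convertases, fell by 1.00 and 0.78 in log2 units (SE 0.124 and 0.208, limma adjusted p = 0.000398 and 0.0208), Pcsk5 from 1188 ± 172 to 591 ± 81.0 normalized counts (n = 5 per group, SD). The Pcsk6 call was lost without shOpn3 replicate 3 (adjusted p = 0.0581). Plau, the urokinase plasminogen activator, rose from 30.8 ± 10.7 to 117 ± 33.3 (n = 5, SD; log2 ratio 1.90, SE 0.251, limma adjusted p = 0.000527). Cpe, carboxypeptidase E, which takes part in sorting the precursor of brain-derived neurotrophic factor, rose by 0.28 (SE 0.0899, limma adjusted p = 0.0448). The Cpe call was lost with no filter on the mean (limma adjusted p = 0.0996), with TMM scaling (0.0529) and with quantile normalization (0.0554). It was also lost without any single library but shControl replicate 4 (0.0549 to 0.111).

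Signal transducers of the Trk and p75 receptors were mostly not called. Of 20 tested genes of Trk signalling, 4 were called higher and 2 lower, against 18.8% of all genes called. The median log2 ratio was -0.06. Shc3 and Shc1, adaptors that bind activated Trk receptors, rose by 0.63 and 0.46 in log2 units (SE 0.133 and 0.148, limma adjusted p = 0.00624 and 0.0454). Ptpn11, a phosphatase that acts in Ras signalling, fell from 22488 ± 2517 to 15074 ± 1135 normalized counts (n = 5, SD; log2 ratio -0.57, SE 0.0893, limma adjusted p = 0.00114). Frs3, a docking protein, fell by 0.52 (SE 0.142, limma adjusted p = 0.0230). The ubiquitin ligase Cbl, named after its values were seen, was higher by 0.27 in log2 units (SE 0.0702). The Cbl call was lost without shControl replicate 4 (adjusted p = 0.0527). Of 11 p75 signalling genes, 2 were called, near the 18.8% of all genes. Ripk2 rose by 0.46 and Maged1, a p75-binding protein, fell by 0.33 (SE 0.109 and 0.0899, limma adjusted p = 0.0115 and 0.0219). Calls for Shc1, Maged1 and Frs3 were each lost without shOpn3 replicate 3, with adjusted p of 0.0994, 0.0674 and 0.0662. The Shc1 call was also lost with no filter on the mean (0.0546) and under TMM scaling (0.0503). The same held without shControl replicates 1, 2, 3 or 4 or shOpn3 replicates 4 or 5 (0.0717 to 0.0995). That for Maged1 was also lost with quantile normalization (0.0825) and without shControl replicates 2 or 4 or shOpn3 replicates 4 or 5 (0.0505 to 0.0552).

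Of 11 feedback genes of Ras-ERK signalling, which Trk receptors switch on, 2 were called higher and 0 lower, against 18.8% of all genes called. With the block 2 were higher and 2 lower, the latter Spry4 and Etv1 (named after their values were seen), against 30.3% of all genes. Both counts were near the background. Dusp6 rose from 477 ± 38.4 to 796 ± 137 normalized counts (n = 5, SD; log2 ratio 0.72, SE 0.120, limma adjusted p = 0.00162). Dusp5 rose from 33.3 ± 14.0 to 64.1 ± 15.8 (n = 5, SD; log2 ratio 0.98, SE 0.276, limma adjusted p = 0.0262). Both encode phosphatases that switch ERK off. The Dusp5 call was lost without shControl replicates 3 or 4 or shOpn3 replicates 3 or 4, with adjusted p from 0.0524 to 0.0751.

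Other trophic factors were split. Of 16 tested, 4 were called higher and 3 lower, against 18.8% of all genes called. The median log2 ratio was -0.09. Hgf, hepatocyte growth factor, rose from 74.4 ± 8.68 to 194 ± 29.8 normalized counts (n = 5, SD; log2 ratio 1.37, SE 0.144, limma adjusted p = 0.000211). Tgfb1 and Igf1, both made by microglia, rose by 1.01 and 0.84 in log2 units (SE 0.204 and 0.153, limma adjusted p = 0.00489 and 0.00274). Nrg1, neuregulin 1, fell from 872 ± 207 to 426 ± 130 (n = 5, SD; log2 ratio -1.05, SE 0.219, limma adjusted p = 0.00594). The remaining calls, named after their values were seen, were Fgf2 as higher and Fgf1 and Vegfa as lower, with log2 ratios of 0.75, -0.55 and -0.76.

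**Figure D5:**
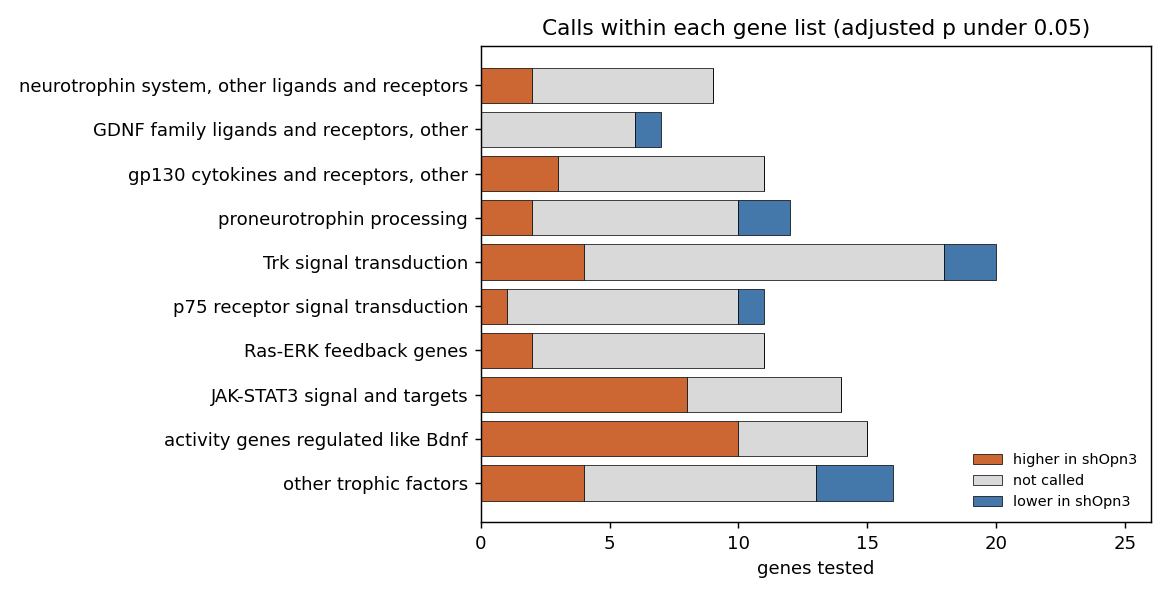
Number of genes tested (horizontal axis) in each of the 10 gene lists, divided into those called higher in shOpn3, not called and called lower at an adjusted p under 0.05. The activity list (10 of 15) and the JAK-STAT3 list (8 of 14) hold the most calls, all in the higher direction. The lists were chosen with earlier results of these data known, and 18.8% of all genes tested were called.

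For the other members, the genes most alike over the 10 samples are given as a description. Those nearest Bdnf were Pde8b, Kcnt2 and Cdc123 (Pearson r = 0.969, 0.952 and 0.948), and none of these was called between the groups. Kcnt2 ranked the 10 samples in the same order as Bdnf (Spearman's rho = 1). Nearest Ntrk3 were Faxc, Ttc39b and Dnajb14 (r = 0.970, 0.963 and 0.963), and nearest Ntf3 were Fam151a and Krt19 (r = 0.904 and 0.854). Nearest Cntf were Gsta1, Fam115c and Cdk19 (r = 0.985, 0.975 and 0.973). Nearest Lif were Gpr18, Masp1 and Sdcbp2 (each r = 0.971), and nearest Ntrk2 were Slc24a1, Met, the receptor of hepatocyte growth factor, and Wnt5a (r = 0.977, 0.974 and 0.972). For Lif and Ntrk2 the groups did not overlap, so these values largely repeat the difference between the groups.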

How the data were processed

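RNA from 10 single supraoptic nuclei was sequenced. Per the submitters' processing notes, FastQC, STAR, featureCounts and DESeq2 were used; versions, genome build, annotation and strand setting are not given in the sources used here. The deposited sample columns hold a signal: gene counts that the authors scaled, each sample by its own size factor. Dividing by a sample's smallest positive value gave whole reads for 100% of values in every sample (tolerance 0.001 of the value). Per the file headers, the authors' own comparison gives log2 fold changes with standard errors, a Wald score, and p-values with adjusted p-values.

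Values were analysed as log2(normalized count + 1) for genes with a mean of at least 10 (15597 genes) with limma 3.58.1 in R 4.3.3 (lmFit, eBayes with trend, group alone), adjusted by the Benjamini-Hochberg method over all genes, threshold 0.05. This scale understates changes of low genes. Single genes were also compared by exact two-sided permutation tests of the log2 values (8 members and Ntf4, unadjusted), which treat the 10 samples as unpaired. After removal of the group means, samples with equal numbers correlated across genes (r from 0.121 to 0.439 in the 5 pairs). The median over the 20 pairs of unequal numbers was -0.205, and their range is not given. Removing the means pushes unequal numbers below 0 where equal ones lie above it, so this contrast is partly built in. Each rat had a nucleus in both groups, so the numbers were taken to pair the samples. No label says that equal numbers mark the same rat. Nothing says more on how replicates were obtained, so p-values measure the spread between these samples. Alternatives were edgeR 4.0.16, DESeq2 1.42.0, the block, other pseudocounts, filters and scalings, sample weights, and leaving out each library. The fits were tested on 1 simulated data set, in which the share of false calls was above the threshold of 0.05 for DESeq2 and below it for limma and edgeR. No call in the text was weighed by this.

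The members and gene lists were chosen with earlier results of these data known. Always named were the members, Opn3, Avp, Oxt and 9 direct partners, then up to 4 further called genes with the largest change from each of 10 pathway lists, and the 3 genes nearest each member by Pearson correlation. Results for a few genes that these rules select are not reported here. Of the 10 marker lists, those not named in the report gave these counts: magnocellular neurons 7 of 8 lower, neurons 1 higher and 1 lower of 8, oligodendrocyte precursors 2 of 6 lower, endothelium 0 of 5, pericytes and fibroblasts 0 of 6, and Schwann cells 1 higher and 2 lower of 5. Levels of different genes were not compared, since no transcript lengths were used. All 8 members were found by symbol in the RefSeq table of GRCr8, which was used for names, neighbours and promoter sequence.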

Additional observations from a re-analysis of the deposited data

Results flagged for a closer look

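Each value here is a sample whose gap to the nearest other sample of its group took up an unusually large share of the group's range. Of 124 group values examined, 8 were of this kind, and chance at 1 in 20 would give about 6.2. None of the 8 members was among them.

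Oxt reached 56716 normalized counts in shControl replicate 1 (next 21354). In the same library Shc3 stood at 578 (next 419) and Frs3 at 362 (next 251). Shc3 was also high in shOpn3 replicate 5, at 827 (next 657). Ntf4 stood at 15.9 in shOpn3 replicate 2 (next 6.54), and Sort1 was lowest in that library at 17756 (next 19038). In shOpn3 replicate 4, Manf stood at 1954 (next 1744) and Cebpd at 59.9 (next 38.0).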

How the results depend on the processing

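Lif kept its direction and its call under all 22 alternatives run for it, with log2 fold changes from 1.35 to 1.71 and adjusted p of at most 0.0113. Bdnf, Ntf3 and Ntrk3 kept a negative sign and no call under all of theirs. The number of genes called, 2940, was 4726 in limma with the replicate number as a block and 5085 with limma-voom and sample quality weights. With edgeR the count was 3025 without the block and 4777 with it, and with DESeq2 3705 and 4587. Without single libraries the limma count lay between 1987 and 3056. The number of members called, 2, was 1 without a filter on the mean, 1 with a mean of at least 50 (which leaves 5 members) and from 1 to 3 without single libraries. Cntf kept its direction throughout and lost its call without the filter (0.44, adjusted p = 0.0555) and without single libraries, where it ranged from 0.37 to 0.53. Ntrk2 gained a call with DESeq2 (0.21, adjusted p = 3.75e-05; with the block 0.21, 0.00550), quantile normalization (0.30, 0.00610), limma-voom with weights (0.18, 0.0154), robust eBayes (0.21, 0.0457) and without shControl replicate 5 (0.22, 0.0490). Its range without single libraries was 0.19 to 0.22. Ngfr changed sign with edgeR (0.13) and DESeq2 (0.14), and without single libraries it ranged from -0.37 to 0.31. Gdnf ranged from -0.22 to 0.43 without single libraries, with a sign that depended on the library left out. Sort1 changed sign with quantile normalization (0.029). The cause of these shifts was not tested. In limma the block changed no call of a member. It added calls for Cntfr and Lifr, given in the report, as well as for the genes named in the report for that reason. Of 1188 values of 52 other genes, 1100 kept direction and side of the threshold, 44 lost a call, 43 gained one and 1 changed sign. Under the scalings tried the median over all genes lay between -0.03 and -0.02. Gdnf, Ntf4 and Il6 are limited by depth. The pair differences were recomputed with pseudocounts of 0.5 and 5, chosen after seeing the data.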
